A study of Mus musculus with 24 samples.

Results

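The transcriptome described here is that of resting myotubes at 5 % O2, named 5 % CTRL, and rests on 6 of the 24 libraries of the study, 1 of its 4 groups of 6. The members are the 6 columns of normalized counts whose names carry that group, taken by label alone, and no value was set against the other groups. The cells are C2C12, a line of mouse skeletal muscle cells that divide as myoblasts in serum-rich medium and fuse into multinucleated myotubes when the serum is reduced. All myotubes of the study, wild type by label, were differentiated under 5 % O2 to day 5, and those of this group stayed for 2 h at 5 % O2 without electrical stimulation. The study's methods give the 6 cultures as biological replicates. A single established line without nerve or blood supply limits the model, and a culture of this kind also holds cells that have not fused. In bulk RNA, fewer cells of a type and less RNA per cell cannot be told apart.

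Differentiation of a myoblast runs through a fixed sequence. Transcription factors of the MYOD family, which bind E-boxes, switch on the genes of the sarcomere, the cell leaves the cycle under inhibitors such as p21, and the fusion proteins myomaker and myomixer join cells. Young muscle uses embryonic versions of many contractile proteins and of the acetylcholine receptor, which adult fibres replace under the influence of nerve and activity. Skeletal muscle also makes microRNAs of its own, several of which lie inside muscle genes.

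Reads assigned to the listed genes numbered 26541858 to 27738555 per library. Counts had been divided by size factors between 0.955 and 0.992, so a normalized count is close to an assigned read. Of the 55487 genes listed, 13895 had a mean normalized count of at least 10, of which 12539 were protein coding, 892 were non-coding and 445 were pseudogenes. These 12539 are 57.1 % of the protein-coding genes listed. Means of at least 100 and of at least 1000 were reached by 10660 and 5155 of all 55487 genes. A further 31793 genes were at 0 in all 6 libraries, which allows up to 3 reads, or 0.0183 per 1000000 reads over the 6 libraries together. Such limits cover counting error only. Levels of different genes are compared per length, as the normalized count divided by the length of the gene's exons and scaled so that each library sums to 1000000. This scaled value is the level in what follows. The 20 myotube markers were all at a mean count of at least 10, and 19 of them were above 1000, the exception being Mymx (encoding myomixer) at 534 ± 65.1 (SD, n = 6). This minimum of 10 cannot decide the label of myotubes, because genes of the opposite state reached it too. In a list of 14 genes of undifferentiated and proliferating cells, all 14 did so, and 4 had means of at least 1000. The median level was 1189 for the 20 myotube markers and 11.9 for those 14 genes. Both lists were chosen with earlier results of these data known.

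The microRNAs that lie inside expressed genes are shown first, since their host transcripts were measured although the mature microRNAs, too short for these libraries, were not. H19, ranked 2 by normalized count and 4 by level per length, carries miR-675 in an exon. Gm28653, which had a normalized count of 3531 ± 266 (SD, n = 6), holds miR-133b in an exon and overlaps part of miR-206 with an exon, and both are microRNAs of muscle. The slow myosin genes Myh7 and Myh7b carry miR-208b and miR-499 in introns, which a library made from mature mRNA hardly covers. Mature sequences come from RefSeq on GRCm38.p6, and the capitals mark the seed, bases 2 to 8, by which a microRNA pairs with its targets.
mmu-miR-206-3p: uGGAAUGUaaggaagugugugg
mmu-miR-133b-3p: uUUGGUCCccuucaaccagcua
mmu-miR-675-5p: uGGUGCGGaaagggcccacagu
mmu-miR-675-3p: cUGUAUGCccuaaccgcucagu
mmu-miR-499-5p: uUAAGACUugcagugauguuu
mmu-miR-208b-3p: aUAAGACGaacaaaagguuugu
No 2 of these 6 share a whole seed. On chromosome 1, miR-206-3p lies at chr1:20679055-20679076 and miR-133b-3p at chr1:20682834-20682855, both on the plus strand. The 2 arms of miR-675 lie on the minus strand of chromosome 7, at chr7:142577112-142577133 for the 5p arm and chr7:142577078-142577099 for the 3p arm.

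No small set of genes dominated the reads. The 10 most abundant genes took 6.99 % ± 0.119 of the reads (SD, n = 6), the top 100 took 23.2 % ± 0.254, and 688 genes held 50 % of them. Fn1, which encodes fibronectin and lies on chromosome 1 from 71585520 to 71653200, led by count. Its normalized counts ran from 310395 through a median of 314038 to 355365, with replicate 1 the highest. H19, the non-coding RNA of the imprinted Igf2 domain on chromosome 7 from 142575529 to 142578143, ran from 276223 through a median of 314372 to 321249. Replicate 5 was the lowest library for H19, and the ranges of Fn1 and H19 overlapped. They were followed by mt-Co1, a cytochrome c oxidase subunit of the mitochondrial genome (271418 ± 13004), by the translation factor gene Eef1a1 (229168 ± 5401) and by Col3a1, a fibrillar collagen gene (170293 ± 8066).

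**Figure D1:**
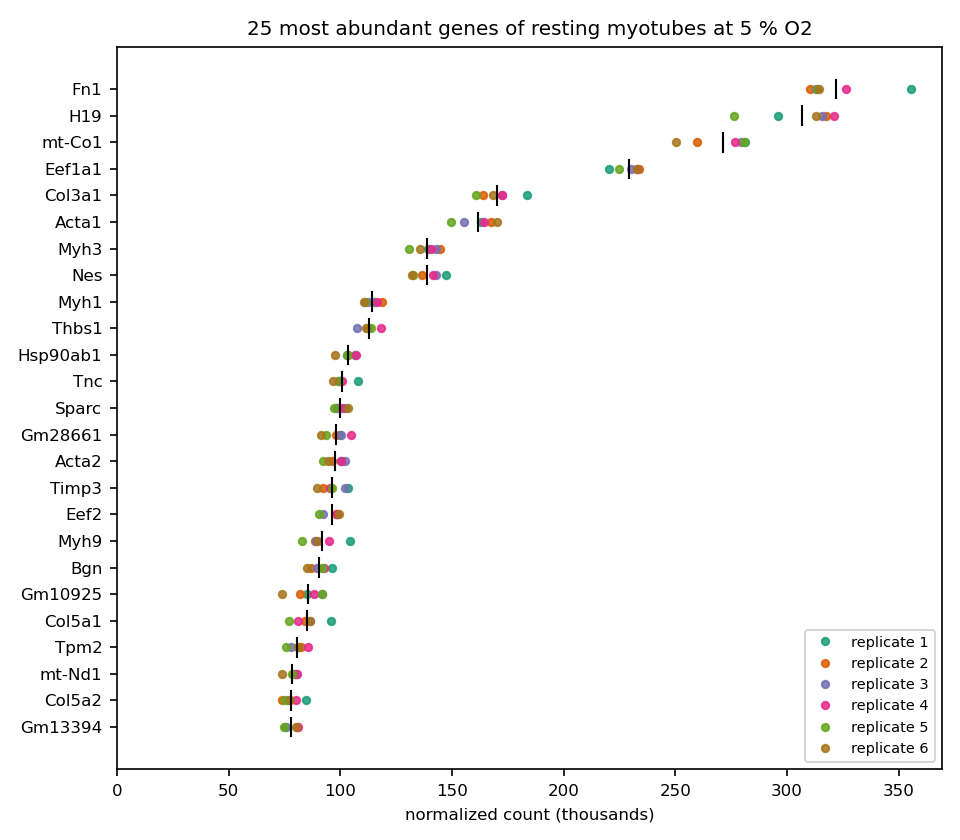
The 25 genes with the highest mean normalized count, 1 row per gene, with the normalized count in units of 1000 on the horizontal axis, a point for each of the 6 replicates and a vertical tick for their mean. Fn1 has its lowest replicate at 310395 and H19 at 276223, and the contractile genes Acta1, Myh3 and Myh1 stand among the 10 most abundant.

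Per length the order changed, because Fn1 has 11685 bases of exon and H19 has 2460. H19 had a level of 15756 ± 747 (SD, n = 6) and Fn1 one of 3487 ± 196. The 15 highest levels belonged to 5 genes of the mitochondrial genome, 5 pseudogenes that share reads with other genes, and H19, Acta1, Eef1a1, Mylpf and Lgals1. Of these last, Acta1 and Mylpf encode skeletal actin and the fast regulatory myosin light chain, and Lgals1 encodes galectin-1. The 13 subunits encoded by the mitochondrial genome summed to a level of 67037 ± 3399.5, or 6.70 % of the per-length total, and genes of that genome took 2.38 % ± 0.104 of the reads. This sum leaves out reads given to pseudogene copies of the same sequence, such as Gm28661 (level 18219), Gm10925 (15948), Gm28437 (8480.3) and Gm29216 (7454), so it is a lower figure than one that counts them.

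The 6 lists of contractile genes together made up 8.15 % of the per-length total, which includes the cytoplasmic actins Actb and Actg1 and non-muscle light chains such as Myl12b. Among the myosin heavy chains of the sarcomere, the motor proteins of the thick filament, the embryonic Myh3 led at a level of 2902 ± 89.0, from 2768 to 3006. The fast Myh1 (type IIX) followed at 2270 ± 53.3, from 2208 to 2350, so that the ranges of the leading 2 did not overlap. Myh3 made up 46.7 % ± 0.455 of the family sum and Myh1 36.5 % ± 0.612 (SD, n = 6). This lead depended on gene length. With the median transcript length the slow Myh7 led at 38.5 %, against 24.2 % for Myh3 and 19.9 % for Myh1. Both genes lie on chromosome 11, Myh3 from 67078300 to 67102291 and Myh1 from 67200052 to 67224575, and 20.9 % of the 75-base stretches in the exons of Myh1, its exon words, also occur in other genes, most of all Myh2.

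Far below them stood Myh4 (fast, type IIB) at 334 ± 24.2, Myh7 (slow) at 284 ± 19.1 and the perinatal Myh8 at 248 ± 22.1. The ranges of these neighbours overlapped, and their order turned when the length of the principal transcript was used. Myh2 (type IIA) reached 101 ± 5.72, the cardiac Myh6 60.7 ± 5.40 and Myh7b 18.8 ± 1.68. The extraocular Myh13 had normalized counts from 30.5 to 56.4 only. All 9 genes of the family were detected, over a range of levels of more than 1000-fold. The non-muscle Myh9, a myosin of the cytoskeleton, had a level of 896 ± 70.9, above each sarcomeric chain but the leading 2.

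Acta1, on chromosome 8 from 123891769 to 123894751, had normalized counts from 149406 through a median of 163614 to 170081, replicate 5 being the lowest. It held 85.8 % ± 0.691 of the sum of the 2 actins of striated muscle, and Actc1, the cardiac actin that marks early muscle, held 14.2 %. In levels the actins ran from Acta1 (13301 ± 582) through the smooth muscle Acta2 (5622 ± 197), the cytoplasmic Actg1 (3377 ± 131) and Actb (3090 ± 162), whose ranges overlapped, to Actc1 (2199 ± 83.6) and Actg2 (456 ± 7.94). Of the exon words of Actg1, 33.5 % are shared with other genes, mostly pseudogenes.

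The promoter of Acta1 is printed because it shows, for the leading contractile gene, the CArG box through which the serum response factor acts, and that factor's gene Srf had a level of 109 ± 4.12. The window holds the 150 bases before the RefSeq start, chr8:123894776-123894925 on the minus strand of GRCm38.p6, with matches in capitals.
Acta1: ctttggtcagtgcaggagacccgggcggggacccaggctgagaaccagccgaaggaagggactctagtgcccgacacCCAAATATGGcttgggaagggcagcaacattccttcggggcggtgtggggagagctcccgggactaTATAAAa
Searched on both strands, the window held 1 CArG box, starting at position -73, and 1 match to TATAAA at position -7, where -1 is the last base before the RefSeq start. The gene model used for lengths starts further downstream, at 123894751. A CArG box occurred in 0.916 % of 32851 promoter windows of the same length and TATAAA in 7.57 %. A match is a description of the letters and not a measured site.

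Troponin and tropomyosin genes, which encode the calcium switch of the thin filament, mixed slow and fast forms. The slow and cardiac troponin C gene Tnnc1 had the highest level of the troponins, 4920 ± 327, ahead of the fast troponin T gene Tnnt3 at 3575 ± 91.7 and the fast troponin C gene Tnnc2 at 3007 ± 187. Of the exon words of Tnnc2, 35.0 % lie in other genes, mainly its neighbour Ube2c. The slow Tnnt1 (1445 ± 29.9) and cardiac Tnnt2 (925 ± 24.1) stood lower per length, although Tnnt2 had the most counts of the 3 troponin T genes, 56691 ± 1809 against 44759.5 ± 1437 for Tnnt3. The fast Tnni2 (1182 ± 75.3) and slow Tnni1 (1129 ± 68.3) could not be ordered, since their ranges overlapped and the principal transcript length turned the order. The cardiac Tnni3 had a level of 1.62 ± 0.370. Tpm2 led the tropomyosins at 3506 ± 120, and Tpm4 (1217 ± 42.4) and Tpm1 (1160 ± 31.3) overlapped.

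**Figure D2:**
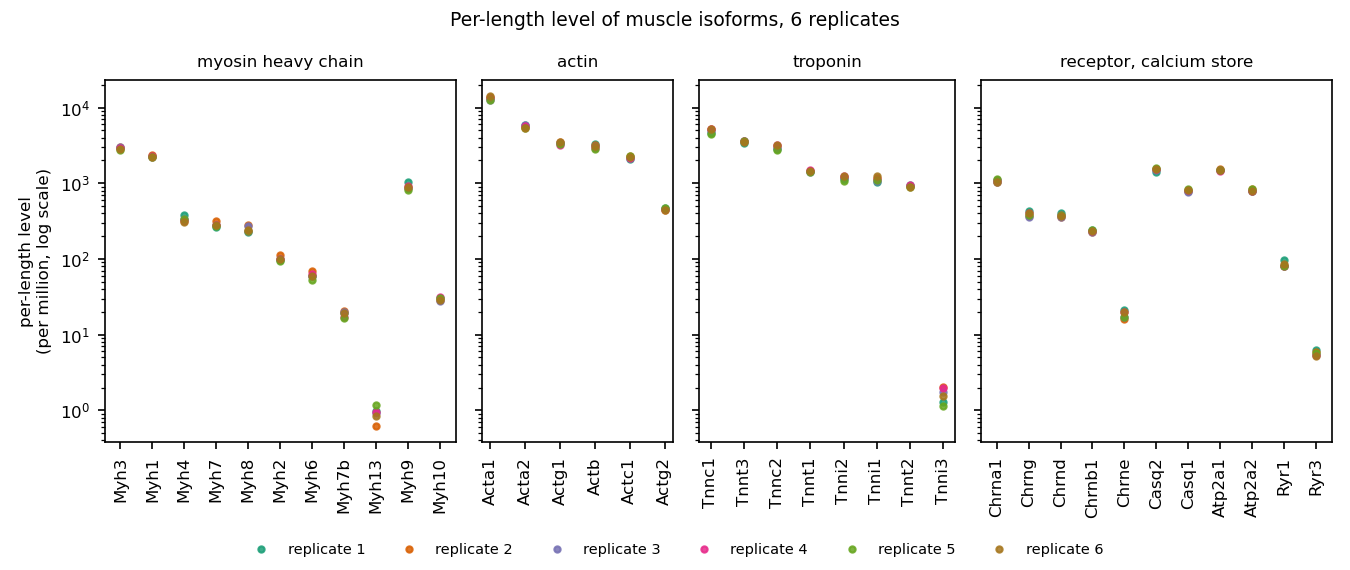
Per-length level on a log scale of myosin heavy chain, actin, troponin, and receptor and calcium store genes, with a point for each of the 6 replicates. Within each panel of contractile genes the replicates of a gene lie close together. The genes lie further apart, from Myh3 at 2902 to Myh13 at 0.913 among the myosins.

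Light chains were led by Mylpf (5974 ± 295) and Myl1 (1861 ± 126), the regulatory and essential chains of fast muscle. The embryonic and atrial Myl4 reached 983 ± 69.5. The slow and ventricular Myl2 had a level of 57.0 ± 6.73, and Myl3 one of 0.457 ± 0.240, while the atrial Myl7 was listed at 0 in all libraries.

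Of 36 genes of the Z-disc, the M-band and the titin filament, 35 were at a count of at least 10 and 31 above 1000. Mybph, a myosin-binding protein gene, led at 3059 ± 134, with 40.7 % of its exon words in other genes, mostly Adora1. Des, which encodes the muscle intermediate filament desmin, followed at 1249 ± 41.2 and overlapped with Klhl41 at 1188 ± 40.7, whose product guards nebulin. The fast alpha-actinin Actn3 (751 ± 15.5) stood above Actn2 (359 ± 17.9). The giant genes Neb (102 ± 7.37) and Ttn (42.5 ± 3.15) had low levels per length but counts of 21382 ± 1398 and 39259 ± 2746. Replicate 1 was the highest library for both. Mybpc3, the cardiac myosin-binding protein, was the member below a count of 10.

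Genes of excitation-contraction coupling, the link from the surface action potential to calcium release, numbered 26 of 30 at a count of at least 10. The calcium store was led by calsequestrin and the calcium pump. Casq2, the cardiac and slow calsequestrin, had a level of 1517 ± 59.2 and overlapped with the fast pump gene Atp2a1 at 1489 ± 36.5. The fast Casq1 was lower at 803 ± 25.5, so that Casq2 made up 65.4 % ± 0.568 of the pair. Atp2a1 made up 64.8 % ± 0.632 of its pair with Atp2a2 (809 ± 24.3).

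The voltage sensor gene Cacna1s had normalized counts from 11851 through a median of 11967 to 12045, the second smallest relative spread of all genes above a count of 1000. Cacna1s was among 283 such genes that varied no more than counting reads alone would give, so its place among them lies within that noise. Its partners Cacng1 (655 ± 23.4), Cacnb1 (130 ± 5.95) and Stac3 (69.7 ± 1.42) were all present. The release channel Ryr1 had a level of 84.6 ± 6.77 and made up 93.7 % ± 0.401 of the ryanodine receptors, with 6.25 % for Ryr3 and a single-digit mean count for Ryr2. The pump inhibitors Sln and Pln and the cardiac channel Cacna1c were at mean counts of 1.03, 1.54 and 0.339. Mrln, which also inhibits the pump, reached a mean count of at least 10, with levels of at most 3.03. Pvalb, the calcium buffer of adult fast fibres, had a level of 13.0 ± 1.82.

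Acetylcholine receptor genes took their fetal form. Chrna1, on chromosome 2 from 73563215 to 73580338, had normalized counts from 35819 through a median of 37168 to 38842 and a level of 1075 ± 44.6. Chrng, the fetal gamma subunit, had a level of 390 ± 24.0, and the adult epsilon subunit Chrne one of 18.7 ± 2.05, so that Chrng held 95.4 % ± 0.257 of the pair. In all 6 libraries this share lay between 95.2 % and 95.8 %. Chrnd (375 ± 17.0) overlapped with Chrng, and Chrnb1 stood at 233 ± 6.85. Of the genes that cluster the receptor, Lrp4 (100.1 ± 7.66) and Rapsn (96.1 ± 8.69) overlapped, and Musk, the agrin-signalling kinase, had a level of 76.4 ± 4.37. All 13 genes of the junction list were at a count of at least 100.

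The promoter of Chrna1 is shown for its matches to CAGCTG. This is 1 form of the E-box, CANNTG with N any base, which MYOD family factors bind. Genes of that family led the myogenic factors listed for these cells. The 150 bases before its RefSeq start are chr2:73580339-73580488 on the minus strand of GRCm38.p6.
Chrna1: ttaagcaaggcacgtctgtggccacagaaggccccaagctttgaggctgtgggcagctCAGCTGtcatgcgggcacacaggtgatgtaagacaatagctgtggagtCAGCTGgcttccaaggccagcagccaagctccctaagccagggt
The window held 2 matches to CAGCTG, starting at positions -92 and -44, a motif found in 8.39 % of the 32851 windows. It held neither TATAAA nor a CArG box. The window of the same length before Myog, searched in the same way, held none of the 3 motifs. Other forms of the E-box were not searched for. The Myog window holds CACATG and CAGTTG, and the Chrna1 window also holds CAGGTG. The Myog window ends at 134290003, inside the gene model used for lengths.

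Other genes of the membrane were uneven. Clcn1, the chloride channel that steadies adult fibres, had normalized counts of only 24.1 to 33.8, and Kcnq5 was listed at 0. In the dystrophin complex and membrane list all 18 genes were at a count of at least 100, led by the integrin genes Itgb1 (1585 ± 50.8) and Itga7 (731 ± 30.5) and the dystroglycan gene Dag1 (583 ± 22.3). Dmd, which encodes dystrophin, was the lowest of them per length, at 3.57 ± 0.113 with a count of 673 ± 19.3.

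Myog, which drives terminal differentiation and lies on chromosome 1 from 134289989 to 134292548, had the highest level of the myogenic factors. Its normalized counts ran from 29456 through a median of 30738 to 31682, and its level of 2589 ± 74.7 was 91.0 % ± 0.388 of the MYOD family. Myod1, which commits cells to the lineage, had a level of 239 ± 14.7. Myf5 (9.05 ± 0.934) and Myf6 (8.57 ± 1.21), the factors of early progenitors and of mature fibres, overlapped with each other far below. Mef2d (levels of 143 to 161), Mef2a (121 ± 8.33) and Mef2c (108 ± 3.90), the partners of the MYOD family, changed places when another gene length was used. Pax7, the satellite cell factor, had counts from 153 to 209.5 and a level of 3.86 ± 0.469, and Pax3 was listed at 0.

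Fusion genes were uneven too. Mymk (myomaker), on chromosome 2 from 27061636 to 27072179, had normalized counts from 12465 through a median of 13119 to 13675 and a level of 1096 ± 32.8. Mymx, on chromosome 17 from 45600971 to 45602102, had counts from 445 through a median of 535 to 633 and a level of 65.7 ± 8.05. The 2 fusogens thus differed far beyond the spread of the libraries in transcript level. Tmem182, a membrane protein that limits fusion, stood between them at 300.2 ± 12.2, and Adgrb3 and Nphs1 were listed at 0.

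**Figure D3:**
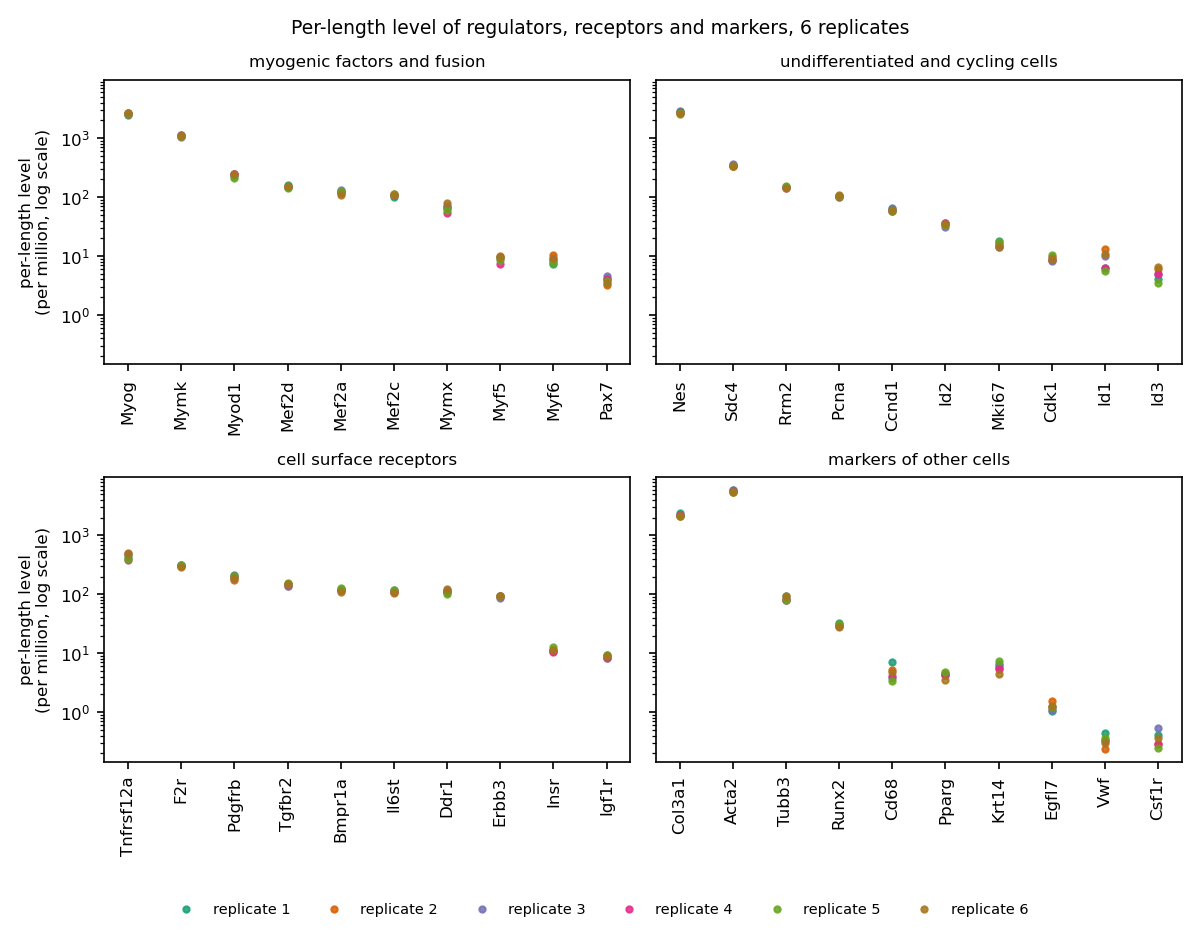
Per-length level on a log scale of myogenic and fusion genes, genes of undifferentiated and cycling cells, cell surface receptors, and markers of other cell types, with a point for each of the 6 replicates. Myog and Nes stand near the top at means of 2589 and 2735, and the proliferation genes Mki67 and Cdk1 far below at 15.7 and 9.03.

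Genes of undifferentiated cells spanned a wide range of levels. Of 22 genes, 19 were at a count of at least 10 and 7 above 1000. Nes, which encodes the intermediate filament nestin of progenitors and of young myotubes, had counts from 132028 through a median of 138846 to 147540 and was eighth by count. Sdc4, a heparan sulphate proteoglycan of satellite cells, had a level of 344 ± 10.2, and Hes1, a Notch target, one of 41.9 ± 2.47. The inhibitors of MYOD binding to DNA were lower, Id2 at 34.3 ± 1.74, Id1 at 8.62 ± 3.02 and Id3 at 4.99 ± 1.14. Id1 spread widely between libraries, from 49.4 to 120.0 counts. Twist1, Calcr and Dlk1 were listed at 0.

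All 30 proliferation genes were at a count of at least 10, with a summed level of 777 ± 18.7, or 0.0777 % of the per-length total. The highest levels were those of Rrm2, a ribonucleotide reductase subunit, at 147 ± 5.15, Ccnd3 (cyclin D3, which stays on in myotubes) at 112 ± 4.20, Pcna at 104 ± 3.83 and Ccnd1 at 60.1. With the principal transcript length the order of Rrm2 and Ccnd3 turned, as did that of Ccnd1 and the next gene, Rrm1. Of the exon words of Ccnd1 and Pcna, 20.6 % and 13.8 % are shared with other genes. Lower members included genes of mitosis. Mki67 had counts of 1249.7 ± 113 and a level of 15.7, Ccnb1 12.8 ± 0.891, Cdk1 9.03 ± 0.733 and Aurkb 4.62 ± 0.783. Cdkn1a, the gene of the inhibitor p21, had a level of 1347 ± 43.4 with counts from 36559.7 through a median of 37676 to 39689. Rb1, the retinoblastoma gene, had a level of 78.4 ± 3.86, and Cdkn2a and Cdkn2b, which are known to be lost in many cell lines, were listed at 0 in all libraries.

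Receptor lists for soluble signals had different leading genes. Tnfrsf12a, the receptor for the cytokine TWEAK, led the cytokine receptors and had a level of 448 ± 52.7, with counts from 5917 through a median of 6871 to 7866. F2r, the thrombin receptor, had a level of 309 ± 10.7 and led the G protein-coupled receptors, of which 30 of the 46 matched were at a count of at least 10. Pdgfrb led the 23 growth factor and insulin receptors at 197 ± 13.4, with Ddr1 (a collagen receptor) at 113 ± 6.70 and the neuregulin receptors Erbb3 and Erbb2 at 91.9 ± 3.07 and 84.6 ± 1.94. Igf2r, which clears IGF2 from the cell surface, had a level of 88.4 ± 3.64. The receptors that signal for insulin and the insulin-like growth factors were lower, Insr at 11.3 ± 0.703 and Igf1r at 8.82 ± 0.477. Ntrk2 and Kit were listed at 0.

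In the TGF-beta family Tgfbr2 (147 ± 6.18) and Bmpr1a (119 ± 6.04) led, and no neighbours in the order of 11 detected genes overlapped. Acvr2b, a receptor for myostatin, had a level of 0.431 ± 0.0574, and Acvr2a, which shares this ligand, one of 35.0 ± 2.41. The cytokine receptor subunit Il6st, common to the IL-6 family, stood at 114 ± 4.70, while the subunit specific to IL-6, Il6ra, stood at 4.07 ± 0.293. Among 32 nuclear hormone receptors, Vdr (vitamin D) led at 70.5 ± 2.21. Nr1d1, a repressor of the clock, stood at 41.5 ± 2.54 and overlapped with the retinoic acid receptor Rarg, and their order turned with the principal transcript length. The glucocorticoid receptor Nr3c1 had a level of 36.2 ± 1.19, and Pgr was listed at 0. Adra1a, Ptger2, Ednrb, Chrm1 and Ccr2 were listed at 0.

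Matrix genes took 5.55 % ± 0.198 of the reads, with 33 of 34 at a count of at least 10. Fn1 had the highest level, then Thbs1 (thrombospondin, 2346 ± 70.5) and Col3a1 (2194 ± 104), which overlapped, and Bgn (biglycan, 1875 ± 89.9). The fibrillar collagens Col5a1 (1269 ± 96.4), Col5a2 (1028 ± 51.8), Col1a1 (919 ± 82.2) and Col1a2 (678 ± 41.7) came below. The principal transcript length turned the orders of Thbs1 and Col3a1, of Col3a1 and Bgn, and of Col5a1 and Col5a2. The mean log2 value of the list lay 0.105 above the mean of the 6 libraries in replicate 1 and between -0.037 and -0.0064 of it in the others. Lum, a proteoglycan gene of fibroblasts, was the member under a count of 10.

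Secreted factors were led by Sparc, a collagen-binding protein, at 3340 ± 81.8, Spp1 (osteopontin) at 1547 ± 88.8 and Igfbp5, which binds insulin-like growth factors, at 1124 ± 18.7. Igf2, the growth factor made by differentiating muscle, had a level of 416 ± 18.3, with 60.7 % of its exon words also in the overlapping gene Gm49394. Igf1 stood at 20.7 ± 1.57. Fgf21, a hormone of stressed muscle and liver, had a level of 299 ± 11.2 with counts from 2120.0 through a median of 2254 to 2349. Vegfa, which directs vessel growth, had a level of 238 ± 10.7. Follistatin (Fst) stood at 158 ± 13.7, whereas myostatin (Mstn), which it binds, had a mean count of 4.29 ± 2.77. The contraction-responsive Il6 had counts from 15.3 to 22.0, and Ostn was listed at 0. In the imprinted list, Meg3, Rian, Mirg and Dlk1, which are neighbours in a single imprinted domain, were all at 0 in all 6 libraries, next to H19 at its level of 15756.

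Genes of energy supply were led by the muscle form in some families and by the form of other tissues in others. Of the 51 genes listed, 44 were at a count of at least 10. Aldoa had a level of 2202 ± 104, the muscle enolase Eno3 1825 ± 63.2 and the muscle phosphofructokinase Pfkm 853 ± 8.47. Eno3 made up 77.7 % ± 0.501 of the enolases, Pfkm 89.8 % ± 0.501 and Pygm, the muscle glycogen phosphorylase, 93.6 % ± 0.0884 of their families. Ckm, the muscle creatine kinase, held 73.7 % ± 0.405 of its pair with Ckb. Ldha, the form that prevails in skeletal muscle, held 97.2 % ± 0.135 of the lactate dehydrogenases. Forms of other tissues led elsewhere, with 57.7 % ± 1.72 for Pgam1 and 63.9 % ± 0.759 for the ADP/ATP carrier Slc25a5. The glucose transporter Slc2a1 had a level of 101 ± 4.23, while Slc2a4, the insulin-responsive transporter of adult muscle, had 2.81 ± 0.494 with counts from 60.4 to 102. Likewise Cpt1a, which admits fatty acids to mitochondria in liver, stood at 24.8 ± 1.11 and the muscle form Cpt1b at 1.52 ± 0.716, with 77.1 % of its exon words in an overlapping gene.

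Myoglobin (Mb), the oxygen-binding protein of muscle, had a level of 1534 ± 85.9. Genes of oxygen sensing were led by the prolyl hydroxylase gene Egln3 at 225 ± 7.65. Hif1a, whose product those hydroxylases mark for destruction, had counts from 3893 through a median of 4023 to 4372, and its level of 87.8 ± 4.94 overlapped with Egln1 at 87.6 ± 3.72. The related Epas1 stood at 0.827 ± 0.0898. The mitochondrial calcium uniporter gene Mcu had counts from 2070.0 through a median of 2321 to 2414, with replicate 1 the lowest, and a level of 41.8 ± 2.00. Micu2, which gates the uniporter, stood above it at 87.8 ± 2.65, and its inhibitory partner Mcub stood at 17.1 ± 1.25. The outer membrane channel Vdac1 had a level of 373 ± 14.9. All 12 genes of mitochondrial calcium uptake were at a count of at least 100.

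The genes of several respiratory subunits and of pyruvate dehydrogenase were chosen because the study also measured their proteins. Atp5a1 of the ATP synthase had a level of 724 ± 20.2, Uqcrc2 of complex III 178 ± 7.32, Sdhb of complex II 67.9 ± 2.48 and Ndufb8 of complex I 54.6 ± 6.17. Pdha1, the pyruvate dehydrogenase subunit, had a level of 385 ± 10.3. The 86 nuclear-encoded subunits of the respiratory chain, 81 of them at a count of at least 10, summed to a level of 9174 ± 545. Isoforms of muscle held 70.4 % ± 2.98 for Cox6a2, but 13.2 % ± 2.03 for Cox7a1 and 22.8 % ± 4.67 for Cox8b. The oxygen-regulated Cox4i2 had a read in 1 library only, and Cox4i1 a level of 287 ± 21.6.

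Markers of other cell types differed widely in level between the lists. None of the 6 erythroid genes reached a mean count of 10, and 2 of 8 did so for adipocytes, endothelium and epithelium each, with summed levels of 6.06 to 8.21, 1.87 to 2.26 and 9.69 to 12.8 over the libraries. Pecam1, the defining gene of endothelium, had a mean count of 1.55, Ptprc of leukocytes 0.173, Adipoq of adipocytes 0.173, and Epcam of epithelium was at 0. For leukocytes 3 of 8 passed, with sums of 4.55 to 8.48, led by Cd68. Fibroblast markers passed in 6 of 8, with sums of 2179 to 2464 that were nearly all Col3a1, while Thy1 and Lum had mean counts of 2.24 and 2.93. Smooth muscle markers passed in 7 of 8, with sums of 8502 to 8995 led by Acta2, Tagln and Des, and its defining Myh11 had a mean count of 5.86. Neuronal markers summed to 84.7 to 99.0, nearly all Tubb3, with Rbfox3 and Snap25 at 0. Cardiomyocyte markers summed to 63.5 to 80.6, mostly Myh6, with Nppa at 0, and those of bone and cartilage to 46.8 to 50.8, from Runx2 and Sox9. Their part in the levels above was not tested.

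Replicates lay close to each other. For the 10660 genes with a mean count of at least 100, the median coefficient of variation was 5.40 %, and 3.98 % was left once the variance expected from counting reads was taken off. Of these genes 838 (7.86 %) kept over 10 % and 89 kept over 20 %, while 1447 varied no more than counting alone would give. Pairs of replicates nonetheless differed beyond sampling noise, with a chi-square per gene between 3.30 and 10.4 over 15 pairs, where counting noise gives about 1. Uba1, which starts the ubiquitin cascade, varied least, with counts from 14425 through a median of 14557 to 14667.5. It belonged to 283 genes with a mean of at least 1000 and nothing left beyond counting noise. The order among these 283 genes lies within that noise. The other 9 of the 10 genes with the smallest spread were Usp10, Cacna1s, Txnip, Crkl, Ttc1, Mid1, Atp6v1b2, Akt2 and Emp2, with coefficients of variation up to 1.10 % and nothing left beyond counting noise. They include a voltage sensor of muscle and Txnip, which restrains glucose uptake.

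**Figure D4:**
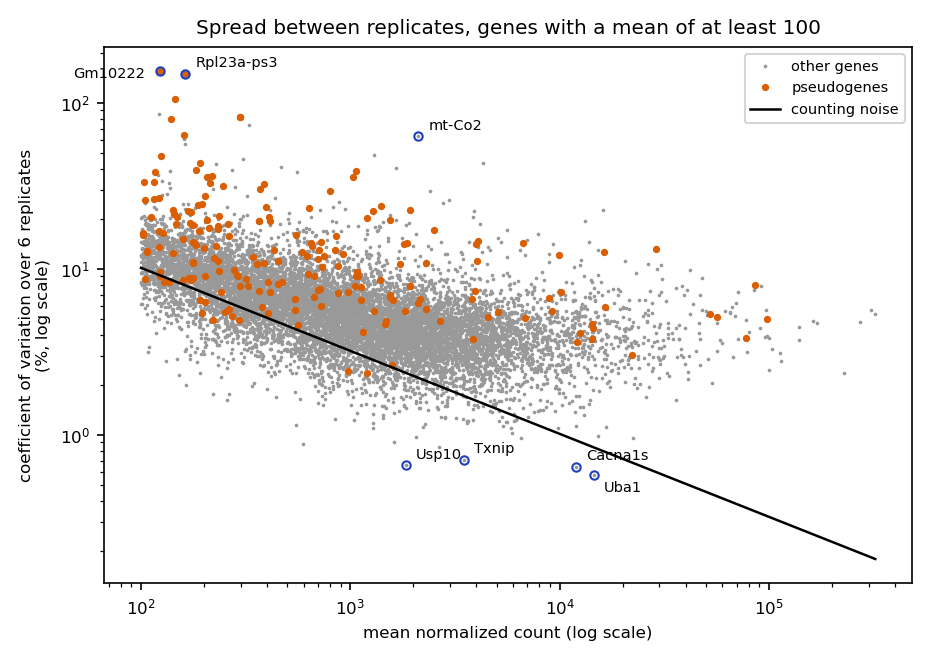
Coefficient of variation over the 6 replicates, in percent on a log scale, against mean normalized count on a log scale, for the 10660 genes with a mean of at least 100. Orange points are pseudogenes, the line is the spread that counting reads alone gives, and blue rings mark 7 named genes. Pseudogenes sit high in the cloud, and Uba1 and Cacna1s lie at or below the line.

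The largest spreads belonged to genes that share their sequence with others. Pseudogenes were 37 of the 89 genes over 20 % (41.6 %), against 196 of the 10660 genes (1.84 %). The 10 largest were mt-Co2, mt-Nd3, Gm28037, Gm10240, Gm13370, Gm10705, Gm10222 and the ribosomal pseudogenes Rpl23a-ps3, Rpl15-ps3 and Rpl17-ps3. Gm10240 and Gm13370 had identical values in every library. Rpl23a-ps3 had counts from 17.8 through a median of 74.7 to 654, with replicate 5 the highest and 110.5 the highest of the others. For mt-Co2 the normalized counts were 3320 in replicate 1, 362 in replicate 2, 2051 in replicate 3, 1275 in replicate 4, 3946 in replicate 5 and 1677 in replicate 6. Mt-Co2 encodes a core subunit of cytochrome c oxidase.

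For several of these genes nearly all reads of the shared sequence were given to a copy. Gm28661, a pseudogene on chromosome 1 from 24614885 to 24615565, shares all of its 75-base words with mt-Co2 and had a count of 98128 ± 4908. Together the 2 summed to 100233 ± 4713, of which mt-Co2 held 2.10 %. The coefficient of variation was 62.9 % for mt-Co2, 5.00 % for Gm28661 and 4.70 % for the sum, which is nearly all copy. Likewise mt-Nd3 held 7.36 % of its sum with Gm28438, mt-Co3 4.39 % with Gm28437 and mt-Atp6 13.9 % with Gm10925. Larger shares were those of mt-Nd4l, 96.9 % of its sum with Gm10222, mt-Co1, 90.4 % with Gm29216, and mt-Nd4, 81.0 % with Gm28439. Of the words of mt-Co1 and mt-Nd4, only 39.8 % and 61.5 % occur in other genes, so their shares include reads of unshared sequence. For mt-Nd4l this was 98.7 %, and for mt-Co2, mt-Nd3, mt-Co3 and mt-Atp6 it was 97.8 to 99.9 %. Counts of mt-Nd4l varied by 20.7 %, and those of Gm10222 fell from 396 in replicate 1 to 0 in replicates 3 to 5. The sums of mt-Co1 and mt-Nd4 with their copies varied by 5.38 % and 6.89 %, more than the 4.79 % and 6.22 % of these genes alone. Gapdh, a usual reference gene, had a count of 11875 ± 601 and held 13.2 % of the sum with its 31 copies, of which Gm13394 had 77910 ± 2988. Of the words of Gapdh, 22.6 % occur in other genes. Since these genes share sequence with the copies, Gapdh in part, levels of mt-Co2, mt-Atp6, mt-Co3, mt-Nd3, mt-Nd4l and Gapdh are uncertain for each gene alone.

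**Figure D5:**
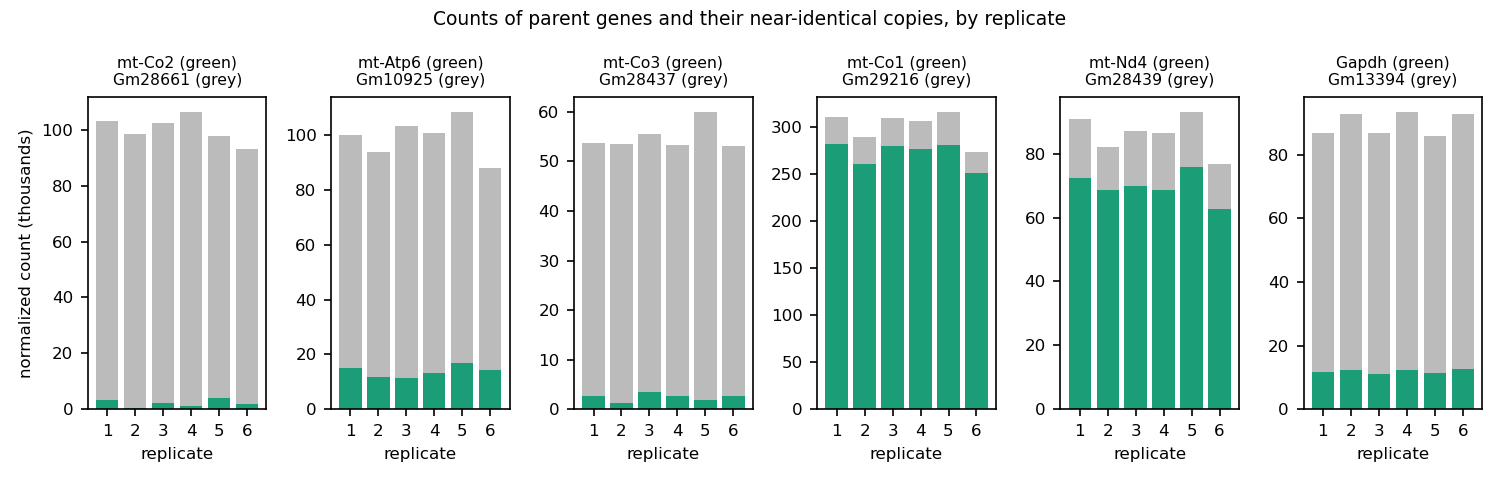
Normalized count in units of 1000 per replicate for 6 genes (green) and the near-identical copy stacked on each (grey), with an axis of its own for each pair. In the mt-Co2 pair the green part is at most 3946 of a mean stack of 100233 and differs between replicates, whereas the heights of the stacks differ little.

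Gene length and replicate 5 also moved with the spread. Of protein-coding genes with a mean count of at least 100, the shortest of 4 groups by exon length kept a median of 4.85 % beyond counting noise, against 3.70 %, 3.70 % and 3.71 % in the longer groups. The share over 10 % was 14.4 % in the shortest and 3.07 % in the longest. Median counts also rose with length, from 615 in the shortest group to 849, 1070 and 1539 in the longer ones. The part of count level in these spreads was not tested. Values changed with each doubling of length by 0.033 on the log2 scale in replicate 1 and 0.030 in replicate 5, and by -0.038 in replicate 6. The scores of the ribosomal protein list ran from -0.138 in replicate 1 to 0.165 in replicate 6, and those of nuclear-encoded respiratory subunits from -0.152 in replicate 5 to 0.155 in replicate 6. These 2 lists hold short genes, and the part of length in their range was not tested beyond the value in the closing section. Replicate 5 led the first principal component, which held 34.9 % of the variance, and 88 of its genes lay over 0.5 log2 units from the mean of the other libraries, against 25 to 47 in the others. Without replicate 5, 69 genes kept over 20 % in place of 89.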

How the data were processed

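RNA of C2C12 myotubes was measured by stranded mRNA sequencing with single-end reads. Per the study's methods, the authors aligned reads with STAR 2.5.4b to GRCm38, quantified genes with RSEM 1.3.0 at its default settings, which do not use strand, and divided by DESeq2 size factors. Overlapping and antisense genes are therefore uncertain. The deposited values are a signal, gene counts over size factors, and whole numbers were recovered from all of them within 0.001. These are estimated counts from RSEM, treated here as reads. For genes that share sequence, counting noise is therefore only an approximate measure. The deposited table held 55487 genes, and no column was left unmapped. Read totals, summed over the listed genes, were 26541858 to 27738555, and limits for a count of 0 used 3 reads.

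Group membership came from the labels. Gene models were GENCODE M21, which matched 55227 of the listed genes. The level of a gene is its normalized count over the length of its merged exons, scaled to 1000000 per library. Spread beyond counting noise is the square root of the variance less the counting variance, over the mean. Scores are mean log2(value + 1) over a list, relative to the mean of the libraries. For neighbours in an order, the ranges over 6 libraries decide whether they are said to differ. These ranges cover differences between libraries and not the choice of gene length. No group was compared with another. Replicates were compared by a chi-square per gene against counting noise, and single libraries by Dixon's ratio. Of the computations, only the estimate of spread beyond counting noise was tested on simulated data. Python 3.11.15, pandas 2.3.3, NumPy 2.4.6, matplotlib 3.10.9, R 4.3.3 and edgeR 4.0.16 were used.

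Members and gene lists were chosen with earlier results of these data known. Genes named were the 25 with the highest counts, the 15 with the highest levels, the 10 with the largest spread above a mean of 100 and the 10 with the smallest above 1000, up to 8 members with the highest level in each list, members at 0 in all libraries, and genes of proteins the study measured. Other list members, isoform partners and near-identical copies were named after their values were seen. Some list members are not reported here. Alternatives were other gene lengths, no length correction, other minimum counts, another scaling, another pseudocount, the median over genes, a removed length trend, no mitochondrial genes and leaving out each replicate. The length of the principal transcript was added after seeing the data.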

Additional observations from a re-analysis of the deposited data

Results flagged for a closer look

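Of 211 results checked over the 6 libraries, 11 had a highest or lowest library that stood apart from the rest by Dixon's ratio, where chance gives about 10.6, that is 1 in 20. Replicate 1 was the library that stood apart in 4 of them and replicate 5 in another 5.

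Replicate 1 was high for Fn1 (normalized count 355365, others 310395 to 326279), Ttn (44442, others 36994 to 39730.4), Ryr1 (16788, others 13878 to 14737) and Igf2r (6946, others 6288 to 6524). All of them have long transcripts, and replicate 1 had the steepest rise of values with gene length of the 6 libraries, 0.033 log2 units per doubling. The part of length in these values was not tested.

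Replicate 5 was high for Rpl23a-ps3 (654, others 17.8 to 110.5), Rpl17-ps3 (456, others 42.5 to 109), Gm28437 (58013, others 50547 to 52222.5) and the sum of mt-Co3 and its copy (59940, others 53212.5 to 55572). It was low for Cox6a2 (832, others 1174 to 1346). Replicate 2 was high for Myh7 (21894, others 17993 to 19394) and replicate 6 low for F2r (7632, others 8171 to 8355).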

How the results depend on the processing

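Gene length was the choice that moved most values. With the median transcript length, the APPRIS principal transcript length and no length correction, the Myh3 share of 46.7 % became 24.2 %, 43.5 % and 43.3 %, and the Chrng share of 95.4 % became 98.7 %, 96.8 % and 98.1 %. The Acta1 share of 85.8 % became 83.2 % with the median length, where Myh7 led the myosins at 38.5 %, and the contractile sum fell from 8.15 % to 6.35 %. Of 31 isoform families, 25 kept their leading gene under all 4 lengths, the exceptions including sarcomeric myosins, troponin I, troponin T, hexokinases and MEF2 factors. The top 10 genes held 6.55 % of reads without mitochondrial genes and 13.3 % of the per-length sum, and the top 100 held 22.2 % and 34.8 %. At a minimum mean of 1000, 17 genes kept over 20 % spread in place of 89.

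Leaving out each replicate gave 46.5 to 46.8 % for Myh3, 85.7 to 86.1 % for Acta1, 95.4 to 95.5 % for Chrng, 8.10 to 8.22 % for the contractile sum, 6.97 to 7.03 % and 23.1 to 23.3 % for the top 10 and top 100, and 69 to 114 genes over 20 % spread, with 69 without replicate 5. The range of list scores, 0.144 at the median of 34 lists, was 0.989 for mitochondrially encoded subunits, or 0.154 with the median over genes, and 0.307 for nuclear-encoded respiratory subunits, or 0.199 with the length trend removed. The trend was estimated on the same libraries. Some orders of neighbouring genes turned with the principal transcript length. No paired analysis was possible because no groups were compared. Genes under about 10 reads per library were near the limit of depth.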
